A study of Mus musculus with 14 samples.

Results

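Bcl6, Prdm1, Maf, Ascl2, Pou2af1, Batf, Irf4 and Tox2, the transcription factor genes that set follicular helper against effector fates in CD4+ T cells, were followed by symbol across every group of the study. All 8 were matched among 25017 gene entries, and all 8 are among the 13780 genes that passed the filter on low counts, Ascl2 only through the group in which it was high. The 14 RNA sequencing libraries, in 7 groups of 2, were made from CD4+ T cells of C57BL/6 (B6) donor origin, sorted from BALB/c recipients 30 days after transplantation of T-cell-depleted B6 bone marrow. Recipients with chronic graft-versus-host disease (cGVHD) were also given B6 splenocytes and gave PSGL1lo and PSGL1hi cells of lung, liver and spleen, where PSGL1 is the P-selectin ligand used for the sort. GVHD-free recipients received no splenocytes and gave spleen PSGL1lo cells. Disease and T cell origin (splenocytes or marrow) therefore cannot be told apart. The labels state neither conditioning, sex and age of the animals nor whether animals were pooled or each library came from another animal, so that p-values measure the spread between libraries, which may be technical.

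Bcl6 encodes the lineage repressor active in T follicular helper cells, which enter B cell follicles and help germinal centre B cells. Prdm1 encodes Blimp-1, a repressor active in effector cells and plasma cells. Each represses the other's gene or programme, so that a T cell high in one is usually low in the other. Maf, Ascl2, Pou2af1 and Tox2 are known from the follicular side, while Batf and Irf4 are activation factors that bind DNA together and are used by follicular and effector cells alike. Because these are bulk samples, fewer cells of a type and less RNA per cell cannot be told apart in any result.

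Libraries held 13222005 to 33532595 counts. Levels are in CPM, counts scaled to a common library size after TMM, edgeR's correction for composition, and are given for replicates 1 and 2 or as mean ± SD of 2 libraries. Where 0 was counted, up to 3 counts, or 0.0859 to 0.224 CPM by library, remain possible from counting error alone. Changes are log2 ratios ± SE from edgeR's quasi-likelihood test, 2-sided, and every adjusted p is from that test, with Benjamini-Hochberg adjustment across 13780 genes. An adjusted p under 0.05 is called a change. Cd4 stood at 1512 to 2686 CPM in the 14 libraries and Cd8a at 2.37 to 96.8 CPM, with its highest values in liver PSGL1hi cells. The names of the liver and lung libraries hold a code, 7 or 8, which stands for PSGL1hi and PSGL1lo in liver but the other way round in lung, and groups follow the sample titles. Selplg, the gene of PSGL1, had 383 and 456 CPM in lung PSGL1lo and 925 and 994 CPM in lung PSGL1hi libraries, and was likewise lower without overlap in the PSGL1lo libraries of liver and cGVHD spleen.

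**Figure D1:**
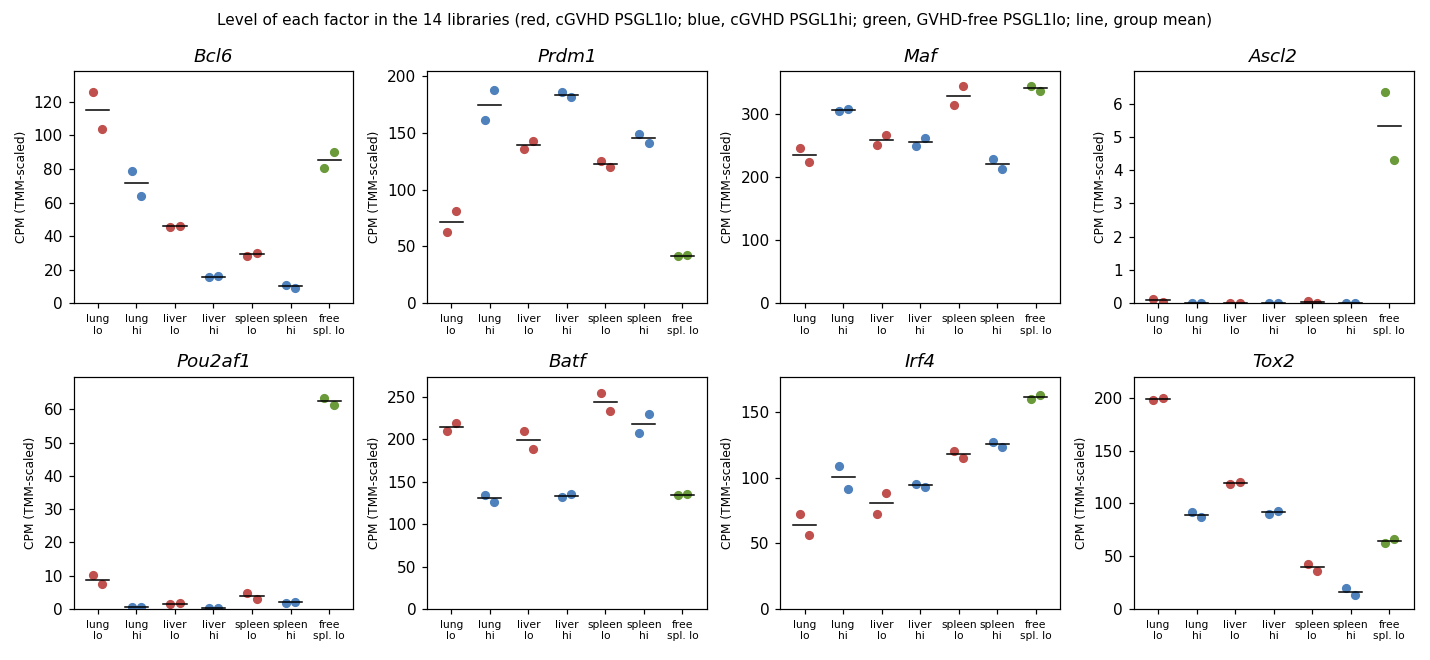
Level of the 8 factors in each of the 14 libraries in TMM-scaled CPM, with a point for each library and a line at the group mean; lo and hi stand for PSGL1lo and PSGL1hi, and free for GVHD-free. Bcl6 was highest in lung PSGL1lo cells (126 and 104 CPM), Prdm1 was lowest in GVHD-free cells (41.3 and 42.6 CPM), and Ascl2 was seen above the level of 3 counts in GVHD-free cells alone.

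Bcl6 and Prdm1 were measured first, as the opposed pair. Bcl6 had 126 and 104 CPM in lung PSGL1lo and 79.0 and 64.2 CPM in lung PSGL1hi cells. Liver PSGL1lo cells had 45.5 and 46.1 CPM, against 15.6 and 16.1 CPM in liver PSGL1hi cells. Spleen PSGL1lo cells of cGVHD recipients had 28.3 and 29.8 CPM, against 11.1 and 9.08 CPM in spleen PSGL1hi cells. GVHD-free spleen PSGL1lo cells had 80.8 and 90.4 CPM. The PSGL1lo libraries lay above the PSGL1hi libraries of the same tissue without overlap, and each of the 7 groups was separated from its neighbours in the order of levels. That order ran from lung PSGL1lo through GVHD-free spleen PSGL1lo, lung PSGL1hi, liver PSGL1lo, spleen PSGL1lo and liver PSGL1hi to spleen PSGL1hi cells.

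Prdm1 was lower in the PSGL1lo than in the PSGL1hi libraries of each tissue, without overlap. It had 62.7 and 81.04 CPM in lung PSGL1lo and 161 and 188 CPM in lung PSGL1hi cells. Liver gave 136 and 143 CPM in the PSGL1lo fraction, against 186 and 182 CPM in the PSGL1hi fraction, and cGVHD spleen 126 and 120 CPM in the PSGL1lo fraction, against 149 and 142 CPM in the PSGL1hi fraction. In GVHD-free spleen PSGL1lo cells Prdm1 had 41.3 and 42.6 CPM, the lowest of the 7 groups, with lung PSGL1lo cells next above. Liver and lung PSGL1hi cells, at the top of the order, overlapped (log2 difference of lung minus liver -0.07 ± 0.09, adjusted p = 0.57). Spleen PSGL1hi, liver PSGL1lo and spleen PSGL1lo cells followed, and neighbours among them were not separated (adjusted p = 0.596 and 0.106).

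PSGL1lo cells were compared with PSGL1hi cells of the same tissue to ask how the fractions differ. Bcl6 was higher in PSGL1lo cells of all 3 tissues, by 0.68 ± 0.11 in lung, 1.53 ± 0.12 in liver and 1.53 ± 0.13 in spleen (adjusted p = 3.01e-05, 5.06e-09 and 1.83e-08). Prdm1 changed by -1.28 ± 0.10 in lung and -0.40 ± 0.09 in liver (adjusted p = 1.26e-09 and 0.00392), and its change of -0.24 ± 0.10 in spleen did not pass (adjusted p = 0.0574). The differences between tissues were tested themselves. Against liver, the PSGL1lo effect in lung was smaller for Bcl6 (difference of log2 changes -0.85 ± 0.16, adjusted p = 0.00166) and more negative for Prdm1 (-0.88 ± 0.13, adjusted p = 0.000199). Against spleen the same differences were -0.85 ± 0.17 and -1.04 ± 0.14 (adjusted p = 0.00152 and 1.59e-05). Between liver and spleen neither effect passed the test of the difference (Prdm1 -0.15 ± 0.13, adjusted p = 0.544, and Bcl6 0.00, adjusted p = 1). Spleen Prdm1 passed when all genes with a count were kept (-0.25, adjusted p = 0.0175) and with the 2 spleen cGVHD groups alone in the fit (-0.24, adjusted p = 0.027).

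The count ratio of Bcl6 to Prdm1 within a library joins both genes. Gene length enters the ratio itself but cancels when libraries are compared. In lung the ratio was 2.01 and 1.28 in PSGL1lo and 0.49 and 0.342 in PSGL1hi cells. In liver it was 0.335 and 0.322 in PSGL1lo and 0.0841 and 0.0885 in PSGL1hi cells, and in cGVHD spleen 0.226 and 0.248 in PSGL1lo and 0.0743 and 0.0642 in PSGL1hi cells. Thus the ratio of PSGL1lo cells was 3.92 times that of PSGL1hi cells in lung, 3.81 times in liver and 3.43 times in spleen, as ratios of geometric means. The 3 folds were of similar size, with no test between them, although Bcl6 made up most of the log2 change in liver and spleen and Prdm1 most of it in lung. With single libraries left out, the log2 difference ranged from 1.65 to 2.30 in lung, 1.89 to 1.97 in liver and 1.67 to 1.88 in spleen. GVHD-free spleen PSGL1lo cells had ratios of 1.95 and 2.12, and the cGVHD spleen PSGL1lo ratio was 0.116 times theirs. No p is given for the ratio, which was formed from genes with known results.

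**Figure D2:**
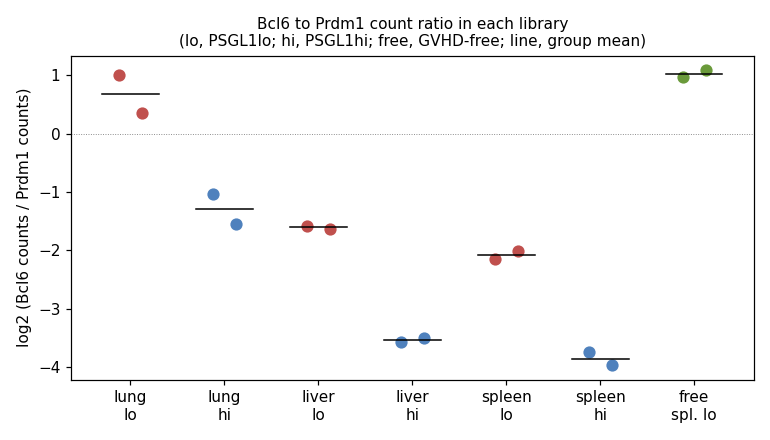
Log2 ratio of Bcl6 counts to Prdm1 counts in each library, by group, with a line at the group mean; lo and hi stand for PSGL1lo and PSGL1hi, and free for GVHD-free. PSGL1lo libraries lie above PSGL1hi libraries of the same tissue, by 1.97 in lung, 1.93 in liver and 1.78 in spleen on the log2 scale, and only lung PSGL1lo and GVHD-free libraries lie above 0.

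Transcripts of other cell types and T cell subsets differed between these fractions. Summed CPM of the 12 macrophage and dendritic cell markers, some of which cells also express Bcl6, Prdm1, Maf and Irf4, was 850 to 1297 in lung PSGL1lo and 787 to 976 in lung PSGL1hi cells. It was 27.7 to 49.1 in liver PSGL1lo and 56.9 to 67.5 in liver PSGL1hi cells, and 205 to 217 in spleen PSGL1lo and 423 to 447 in spleen PSGL1hi cells. None of these 12 markers was at 0 in any group, and 1 rose in lung, 2 fell in liver and 7 fell in spleen PSGL1lo cells. Foxp3 marks regulatory T cells, some of which express Prdm1, and its mean was 7.29 ± 0.30 CPM in lung PSGL1lo cells, against 53.1 ± 0.61 CPM in lung PSGL1hi cells. Its averages were 4.59 ± 0.54 and 20.7 ± 2.2 CPM in liver PSGL1lo and PSGL1hi cells and 3.92 ± 0.46 and 18.6 ± 2.8 CPM in those of spleen. Of the 5 regulatory T cell markers 4 fell and 1 rose in lung, 2 fell and 1 rose in liver and 3 fell in spleen. Both CD8 T cell markers, Cd8a and Cd8b1, fell in PSGL1lo cells of all 3 tissues, with summed CPM of 12.1 to 12.4 in PSGL1lo and 28.5 to 30.6 in PSGL1hi cells of lung. The sums were 28.0 to 31.5 in PSGL1lo and 141 to 142 in PSGL1hi cells of liver, and 11.8 to 12.3 in PSGL1lo and 77.5 to 77.6 in PSGL1hi cells of spleen. Of 5 plasma cell markers tested, a cell type high in Prdm1, 1 fell in lung, 1 in liver and 2 in spleen. The part of these transcripts in the Bcl6 and Prdm1 results was not tested.

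The start regions of the pair are shown because Bcl6 and Blimp-1 proteins are known to act on each other's genes and because the transcripts changed in opposite directions between the fractions of lung and liver and between cGVHD and GVHD-free cells. RefSeq windows on build GRCm38.p6, from 250 bases before to 50 after each start site, were matched by symbol for 7 of the 8 members, 12 windows in all. No coordinates of the mm9 counts were used. The downstream of the 2 Bcl6 windows (chr16:23981234-23981533, minus strand) and the Prdm1 window (chr10:44458699-44458998, minus strand) read as follows, 5′ to 3′ along the gene, with motif matches in capitals.
Bcl6 downstream window: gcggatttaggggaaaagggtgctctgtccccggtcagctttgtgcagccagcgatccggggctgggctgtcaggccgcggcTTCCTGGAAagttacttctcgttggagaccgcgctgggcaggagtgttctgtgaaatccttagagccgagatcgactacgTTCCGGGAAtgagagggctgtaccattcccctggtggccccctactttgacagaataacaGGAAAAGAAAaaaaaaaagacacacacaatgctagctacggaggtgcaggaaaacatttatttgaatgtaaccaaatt
Prdm1 window: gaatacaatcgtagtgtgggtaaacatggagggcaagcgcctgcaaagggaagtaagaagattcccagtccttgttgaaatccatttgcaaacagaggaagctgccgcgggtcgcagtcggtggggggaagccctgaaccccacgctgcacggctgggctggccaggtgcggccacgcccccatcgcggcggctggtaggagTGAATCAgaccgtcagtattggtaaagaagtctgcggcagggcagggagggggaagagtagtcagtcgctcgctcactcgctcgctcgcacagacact
In the Bcl6 window the capitals mark TTCCTGGAA at -168 and TTCCGGGAA at -88 from the start site, both matches to TTCCNNGAA, the form bound by Bcl6 protein. Such letters also match the wider form bound by STAT factors. Another match, GGAAAAGAAA at -28, follows the ETS-IRF composite form bound by Irf4 with an ETS factor. The Prdm1 window holds TGAATCA at -48, a match to the AP-1 form TGANTCA, which Batf binds with a Jun partner. Of the 32851 RefSeq windows of this length, 4.81% hold TTCCNNGAA, 2.72% the ETS-IRF composite and 7.81% TGANTCA on either strand. The Blimp-1 form AGNGAAAG (8.63% of windows), the octamer ATGCAAAT used by the protein of Pou2af1 with its Oct partners (1.74%) and the E-box CAGCTG (16.3%) had no match in the 12 windows, and the upstream Bcl6 window, not printed, held none of the 6 motifs. A match is a description of letters and not a measured site.

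The follicular factors came next. Tox2, an HMG-box factor that opens chromatin at follicular genes, had 198 and 200 CPM in lung PSGL1lo and 91.7 and 87.2 CPM in lung PSGL1hi cells. Liver gave 119 and 120 CPM in the PSGL1lo fraction, against 89.9 and 93.0 CPM in the PSGL1hi fraction, cGVHD spleen 43.1 and 35.8 CPM in the PSGL1lo fraction, against 19.7 and 13.4 CPM in the PSGL1hi fraction, and GVHD-free spleen 62.8 and 66.8 CPM. Tox2 rose in PSGL1lo cells by 1.15 ± 0.11 in lung, 0.38 ± 0.10 in liver and 1.26 ± 0.13 in spleen (adjusted p = 2e-08, 0.0113 and 1.24e-07). The liver effect was smaller than that of lung (lung minus liver 0.77 ± 0.15, adjusted p = 0.00193) and of spleen (liver minus spleen -0.87 ± 0.16, adjusted p = 0.00291). The liver call was lost without either liver PSGL1hi library (0.36 without replicate 1 and 0.41 without replicate 2, adjusted p = 0.105 and 0.0617). In the order of levels, liver and lung PSGL1hi cells were the only neighbours not separated for Tox2 (adjusted p = 0.847).

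Pou2af1 encodes a coactivator of Oct factors in B cells that is also found in follicular helper T cells. It was a low gene in all cGVHD groups. Lung PSGL1lo cells had 10.1 and 7.64 CPM (238 and 171 counts) and lung PSGL1hi cells 0.648 and 0.627 CPM (15 and 16 counts). In liver it had 1.37 and 1.85 CPM in the PSGL1lo fraction, against 0.27 and 0.435 CPM in the PSGL1hi fraction, and in spleen 4.77 and 3.01 CPM in the PSGL1lo fraction, against 1.87 and 2.08 CPM in the PSGL1hi fraction. GVHD-free cells had 63.3 and 61.4 CPM, several times any cGVHD library. Pou2af1 rose in PSGL1lo cells by 3.79 ± 0.26 in lung, 2.12 ± 0.36 in liver and 0.96 ± 0.26 in spleen (adjusted p = 2.99e-10, 0.000179 and 0.00594). The lung effect exceeded that of spleen by 2.83 ± 0.38 (adjusted p = 2.4e-05), while its difference from liver, 1.67 ± 0.53, did not pass (adjusted p = 0.0679). That difference was called by DESeq2 (1.65, adjusted p = 0.0309) and by edgeR without the low-count filter (1.67, adjusted p = 0.0252). Without spleen PSGL1lo replicate 1 the spleen change was 0.60 and not called (adjusted p = 0.168), and without liver PSGL1lo replicate 2 or lung PSGL1lo replicate 2 the lung and liver effects were called different (1.88 and 1.89, adjusted p = 0.0339 and 0.0354).

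B cell transcripts were read beside Pou2af1. Summed CPM of 11 B cell markers was 16.6 to 21.0 in lung PSGL1lo and 13.6 to 16.1 in lung PSGL1hi cells, 12.7 to 12.8 and 10.7 to 12.2 in liver PSGL1lo and PSGL1hi cells, and 16.9 to 20.6 and 9.42 to 10.5 in spleen PSGL1lo and PSGL1hi cells. The GVHD-free libraries had 72.3 to 72.8. Within lung the tested B cell markers gave 2 higher, 1 lower and 4 not past the test in PSGL1lo cells, in liver 1, 1 and 5, and in spleen 2, 1 and 4. Their part in the Pou2af1 differences was not tested.

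Ascl2 encodes a basic helix-loop-helix factor that can induce the follicle-homing receptor Cxcr5. In cGVHD it had 3 and 1 counts in lung PSGL1lo cells, 1 and 0 in spleen PSGL1lo cells and 0 in every library of the other 4 groups, so no fold is given between cGVHD groups. GVHD-free cells had 104 and 60 counts (6.34 and 4.30 CPM). Over both libraries the cGVHD spleen PSGL1lo level was 0.00645 times the GVHD-free level, with an exact 95% counting interval of 0.000162 to 0.0364. The filter kept Ascl2 only because GVHD-free cells held it, and its call in that comparison is therefore no support for the group of factors. Set against 3 counts over both libraries, the level was at least 87.6-fold lower in lung PSGL1hi, 106-fold lower in liver PSGL1lo, 89.7-fold lower in liver PSGL1hi and 80.1-fold lower in spleen PSGL1hi cells than in GVHD-free cells, in which comparisons tissue or fraction differ as well. These bounds leave out the counting error of the GVHD-free counts. With it, the exact 95% upper limits of the ratio were 0.0142, 0.0118, 0.0139 and 0.0155 in the same order.

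Maf, the bZIP factor that drives Il21 and Il10 in helper T cells, changed with the fraction in opposite directions in lung and spleen. It had 246 and 224 CPM in lung PSGL1lo and 304 and 308 CPM in lung PSGL1hi cells. In cGVHD spleen the order was reversed, with 314 and 344 CPM in the PSGL1lo fraction, against 229 and 212 CPM in the PSGL1hi fraction. Liver PSGL1lo cells had 250 and 267 CPM and liver PSGL1hi cells 249 and 262 CPM, and these overlapped. Maf changed by -0.38 ± 0.07 in lung and rose by 0.58 ± 0.07 in spleen PSGL1lo cells (adjusted p = 0.000286 and 2.87e-06), with 0.02 ± 0.07 in liver (adjusted p = 0.911). The lung and spleen effects differed by -0.96 ± 0.10 (adjusted p = 1.39e-06), the liver and spleen effects by -0.56 ± 0.10 (adjusted p = 0.00236) and the lung and liver effects by -0.40 ± 0.10 (adjusted p = 0.0204). The last call was lost without either lung PSGL1hi library, without either liver PSGL1hi library and without lung PSGL1lo replicate 2 (-0.44 to -0.30, adjusted p = 0.0549 to 0.151). GVHD-free cells had 344 and 336 CPM and overlapped cGVHD spleen PSGL1lo cells. Of the 6 pairs of neighbours in the order of Maf levels only lung PSGL1hi and liver PSGL1lo cells were separated.

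Batf and Irf4, the paired activation factors, changed in opposite directions in lung PSGL1lo cells. Batf had 209 and 219 CPM in lung PSGL1lo and 135 and 126 CPM in lung PSGL1hi cells, and 210 and 189 CPM in liver PSGL1lo and 132 and 135 CPM in liver PSGL1hi cells. In cGVHD spleen both fractions were near the top of the order, at 254 and 233 CPM in the PSGL1lo fraction, against 207 and 230 CPM in the PSGL1hi fraction, and GVHD-free cells had 134 and 135 CPM. Batf rose in PSGL1lo cells by 0.72 ± 0.08 in lung and 0.58 ± 0.08 in liver (adjusted p = 2.07e-07 and 1.02e-05), and its spleen change of 0.16 ± 0.08 did not pass (adjusted p = 0.119). The effect exceeded that of spleen by 0.56 ± 0.11 in lung (adjusted p = 0.00103) and by 0.42 ± 0.11 in liver (adjusted p = 0.0236). The liver difference was not called in 5 of the 8 fits that left out 1 of its libraries (both liver PSGL1hi libraries, liver PSGL1lo replicate 1, spleen PSGL1hi replicate 2 and spleen PSGL1lo replicate 2), nor with only its groups in the fit (0.41, adjusted p = 0.0648). In the order of Batf levels only liver PSGL1lo and GVHD-free cells were separated as neighbours.

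Irf4 had 72.5 and 56.3 CPM in lung PSGL1lo and 109 and 91.8 CPM in lung PSGL1hi cells, and 72.6 and 88.3 CPM in liver PSGL1lo and 95.6 and 93.0 CPM in liver PSGL1hi cells. Spleen gave 121 and 115 CPM in the PSGL1lo fraction, against 128 and 123 CPM in the PSGL1hi fraction of cGVHD recipients and 160 and 163 CPM in GVHD-free cells. Thus GVHD-free cells were highest and lung PSGL1lo cells lowest, each separated from its neighbour. The separation of lung from liver PSGL1lo cells was lost without liver PSGL1lo replicate 2 (-0.17) or lung PSGL1lo replicate 2 (-0.14). It was also lost in edgeR with only the compared groups in the fit (-0.31, adjusted p = 0.103). Irf4 changed in lung PSGL1lo cells by -0.64 ± 0.11 (adjusted p = 7.21e-05). The changes of -0.23 ± 0.11 in liver and -0.09 ± 0.11 in spleen did not pass (adjusted p = 0.131 and 0.564), though that of liver was called without liver PSGL1lo replicate 2 (-0.38, adjusted p = 0.016) and without the low-count filter (-0.23, adjusted p = 0.0443). The lung effect differed from that of spleen by -0.55 ± 0.15 (adjusted p = 0.0145), a call lost without lung PSGL1hi replicate 1, lung PSGL1lo replicate 2, spleen PSGL1hi replicate 2 or spleen PSGL1lo replicate 1 (-0.52 to -0.33, adjusted p = 0.0626 to 0.168). From liver it differed by -0.41 ± 0.15, which did not pass (adjusted p = 0.13). That difference was called without the low-count filter (-0.41, adjusted p = 0.0224) and without liver PSGL1lo replicate 1 or lung PSGL1lo replicate 1 (-0.55 and -0.60, adjusted p = 0.0243 and 0.0241).

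**Figure D3:**
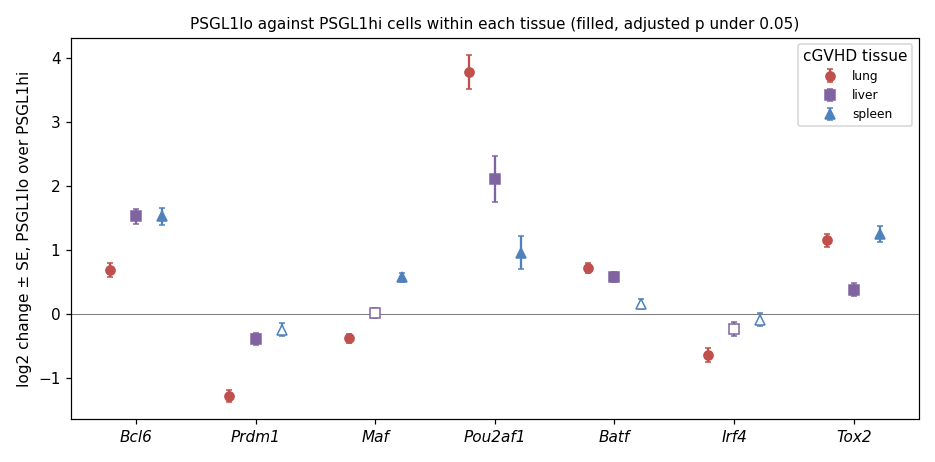
Log2 change of PSGL1lo over PSGL1hi cells ± SE for the 7 factors with counts in cGVHD cells, by tissue; filled symbols passed an adjusted p under 0.05. Bcl6, Pou2af1 and Tox2 were higher in all 3 tissues, Prdm1 fell most in lung (-1.28), and Maf lay below 0 in lung and above 0 in spleen.

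Counted together, 4 of the 8 factors were higher and 3 lower in lung PSGL1lo cells, where 33% of all genes tested were called (12.9% higher and 20.1% lower). In liver 4 were higher and 1 lower, with 20.8% of genes called (8.5% higher and 12.3% lower), and in spleen 4 were higher and 0 lower, with 32.5% called (15.8% higher and 16.7% lower). In DESeq2 the counts were 7, 5 and 4, as in edgeR. Of the differences between tissues, 4 factors were called for lung against liver, 6 for lung against spleen and 3 for liver against spleen, where 5.97%, 16.6% and 6.84% of genes were called. Each pair of these differences shares the libraries of 1 tissue.

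Genes around the 8 factors were counted in lists of the same pathway. The lists were chosen with earlier results of these data known, so their counts and medians are descriptions and no test of a pathway. Among 15 follicular surface and help genes, 11 were higher and 2 lower in lung PSGL1lo cells, 14 and 0 in liver and 12 and 1 in spleen. The list medians were 0.93, 0.67 and 0.88 on the log2 scale, where the median of all genes was -0.03 to 0.00. Cxcr5, the receptor for the follicular chemokine, rose by 2.21 ± 0.10 in lung, 1.78 ± 0.09 in liver and 1.90 ± 0.10 in spleen. Icos and Cd40lg, a receptor and a ligand of B cell help, changed in lung by -0.60 ± 0.07 and -0.47 ± 0.08 and rose in liver by 0.46 ± 0.07 and 0.27 ± 0.08. The differences between those effects were -1.06 ± 0.10 for Icos and -0.74 ± 0.12 for Cd40lg (adjusted p = 1.66e-06 and 0.000271). Il21, the follicular cytokine, rose by 1.83 ± 0.10 in lung and 0.34 ± 0.09 in liver, and these effects differed by 1.49 ± 0.13 (adjusted p = 5.43e-07).

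Among 12 transcription factors that work with Bcl6 or precede it, 5 were higher and 1 lower in lung, 4 and 0 in liver and 7 and 0 in spleen PSGL1lo cells. Tcf7, which encodes TCF-1, rose by 0.96 ± 0.07 in lung, 1.38 ± 0.08 in liver and 2.37 ± 0.08 in spleen. Id3, an inhibitor of E proteins, rose by 1.03 ± 0.12, 0.74 ± 0.14 and 1.31 ± 0.14 in lung, liver and spleen. Pou2f2, which encodes an Oct partner of the Pou2af1 protein, rose by 1.32 ± 0.11, 0.32 ± 0.10 and 0.62 ± 0.14 in the same tissues. Pou2f1, the other Oct factor gene of the list, did not pass in lung, liver or spleen (0.07, 0.12 and 0.0003). Tox, the relative of Tox2, rose in lung by 1.12 ± 0.07 (adjusted p = 1.17e-10), with 562 ± 23 CPM in the PSGL1lo fraction, against 259 ± 11 CPM in the PSGL1hi fraction. In liver it had 407 ± 4.6 CPM in the PSGL1lo fraction, against 409 ± 9.99 CPM in the PSGL1hi fraction, and the lung and liver effects differed by 1.13 ± 0.10 (adjusted p = 5.43e-07). Of the other Tox family genes Tox4 changed in lung by -0.18 ± 0.07, and Tox3 did not pass the filter on low counts.

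The effector side was split between factors and products. Of 12 listed effector factors 11 were tested and Zfp683 was not analysed here. In lung PSGL1lo cells 8 fell and 2 rose, in liver 4 and 2, and in spleen 3 and 4. Runx3, a factor of cytotoxic programmes, changed by -0.92 ± 0.07 in lung, -0.41 ± 0.07 in liver and -0.47 ± 0.08 in spleen. Klf2, a factor of lymphocyte recirculation that opposes follicular fate, led the decreases in lung (-1.10 ± 0.13) and liver (-1.33 ± 0.13). Tbx21, which encodes the Th1 factor T-bet, changed in lung by -0.76 ± 0.10, and its effect differed from that of liver by -0.81 ± 0.15 (adjusted p = 0.00102). Stat5a, which transmits interleukin-2 signals that favour Blimp-1, rose in lung, liver and spleen by 0.56 ± 0.09, 0.75 ± 0.09 and 0.33 ± 0.09. Of 13 effector products such as granzymes and Il10, 11 fell and 1 rose in lung, 13 fell in liver and 12 fell in spleen, with list medians of -1.18, -1.30 and -1.64. Gzmb averaged 21.2 ± 8.5 CPM in lung PSGL1lo and 189 ± 34 CPM in lung PSGL1hi cells (log2 change -3.16 ± 0.16, adjusted p = 4.16e-12), and Lag3 was the gene that rose in lung (0.64 ± 0.08). Gzma, another granzyme gene, changed by -3.46 in lung, -2.24 in liver and -2.10 in spleen, the largest decrease of the list in each. Il10, a target of Blimp-1 and Maf, changed by -1.69 ± 0.10, -1.72 ± 0.10 and -1.78 ± 0.10 in lung, liver and spleen. Both tested natural killer cell markers fell with these products in all 3 tissues, Klrb1c with changes of -1.53 ± 0.18, -1.03 ± 0.15 and -1.06 ± 0.20 and Klre1 with changes of -1.61 ± 0.23, -1.81 ± 0.20 and -2.84 ± 0.32 in lung, liver and spleen. Summed CPM of 4 such markers was 4.64 to 4.92 in lung PSGL1lo and 12.4 to 16.4 in lung PSGL1hi cells, 14.7 to 15.4 in liver PSGL1lo and 35.6 to 40.7 in liver PSGL1hi cells, and 3.43 to 3.66 in spleen PSGL1lo and 10.8 to 10.9 in spleen PSGL1hi cells. Ncr1 and Klra8 were at 0 in lung and spleen PSGL1lo cells. Their part in the changes of effector products was not tested.

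Partners of Batf, Irf4 and Maf moved less evenly. Of 11 AP-1, IRF and small Maf genes, 1 rose and 6 fell in lung PSGL1lo cells, 2 rose and 2 fell in liver, and 4 rose and 1 fell in spleen. Fosl2 (-1.04 ± 0.10), Bach1 (-0.83 ± 0.10) and Mafk (-0.81 ± 0.09) led the decreases in lung. Bach2, a repressor that restrains Prdm1, rose by 0.76 ± 0.14 in lung and 0.91 ± 0.18 in spleen. In liver, where Prdm1 was lower in PSGL1lo cells as well, Bach2 did not pass (-0.12 ± 0.16, adjusted p = 0.647). Its lung and liver effects differed by 0.88 ± 0.21 (adjusted p = 0.0134). Irf8 changed in spleen by -1.19 ± 0.08 and in liver by -0.30 ± 0.08. Of 11 corepressor genes, 1 rose and 1 fell in lung, 1 and 0 in liver and 2 and 3 in spleen. Bcor, whose protein is a partner of Bcl6, rose by 0.54 ± 0.08 in lung, 0.36 ± 0.08 in liver and 0.46 ± 0.08 in spleen.

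**Figure D4:**
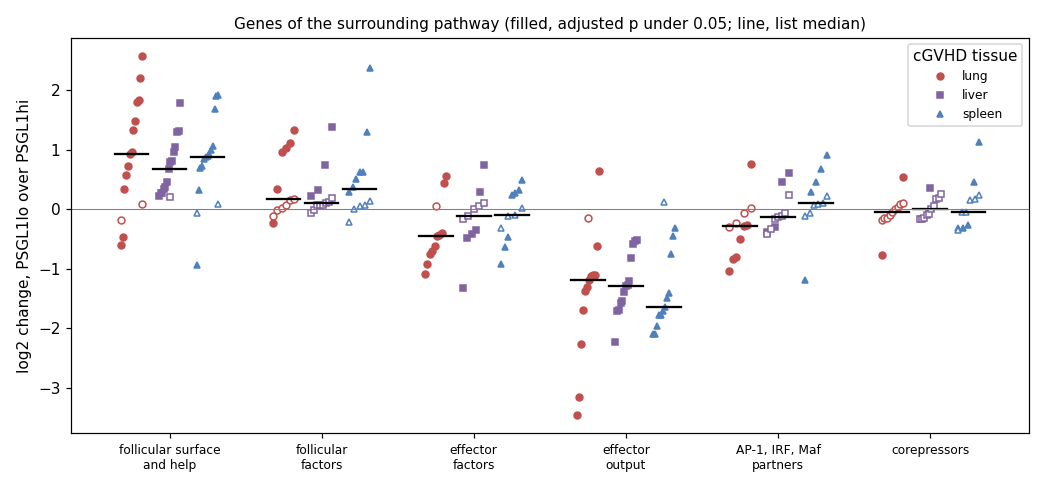
Log2 change of PSGL1lo over PSGL1hi cells for the genes of 6 lists, by tissue, with a symbol for each gene and a line at the list median; filled symbols passed an adjusted p under 0.05. Follicular surface and help genes lie mostly above 0 (medians 0.93, 0.67 and 0.88 in lung, liver and spleen) and effector products mostly below 0 (-1.18, -1.30 and -1.64). The lists were chosen with earlier results of these data known.

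In spleen PSGL1lo cells, cGVHD was compared with the GVHD-free state. Of the 8 factors, 2 were higher in cGVHD (Prdm1 and Batf), 5 were lower (Bcl6, Ascl2, Pou2af1, Irf4 and Tox2) and Maf did not pass (-0.05 ± 0.07, adjusted p = 0.68). Among all genes 27.5% were called, 14.7% higher and 12.8% lower. Ascl2 passed the low-count filter only through the GVHD-free group, so its call is no support and is not to be read against these shares. Bcl6 changed by -1.56 ± 0.12 and Prdm1 by 1.55 ± 0.10 (adjusted p = 1.15e-09 and 1.67e-10), nearly equal sizes in opposite directions, and no library of one group overlapped the other for either gene. Batf was higher by 0.86 ± 0.08 and Irf4 changed by -0.46 ± 0.11 (adjusted p = 2e-08 and 0.0024). Tox2 changed by -0.72 ± 0.12 and Pou2af1 by -4.02 ± 0.20 (adjusted p = 5.92e-05 and 1.37e-12). All 7 tested B cell markers were lower in cGVHD as well, Pax5 among them at 0.601 ± 0.20 CPM in cGVHD and 7.20 ± 0.25 CPM in GVHD-free cells, and Foxp3 stood at 3.92 ± 0.46 CPM in cGVHD and 56.3 ± 2.3 CPM in GVHD-free cells. Of the 5 regulatory T cell markers 4 were lower. Their part in the results for the factors was not tested.

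Around them, 3 of 12 follicular transcription partners were higher and 5 lower in cGVHD. Id3 (-1.19 ± 0.13), Pou2f2 (-1.08 ± 0.13) and Tcf7 (-1.05 ± 0.08) were the leading decreases, and Nfatc2 (0.38 ± 0.08) the leading increase. Effector factors gave 6 higher and 3 lower of 11. Id2 had 589 ± 11 CPM in cGVHD and 147 ± 2.1 CPM in GVHD-free cells (2.001 ± 0.076, adjusted p = 1.6e-14). Tbx21 was higher by 1.635 ± 0.116 and Bhlhe40 by 1.35 ± 0.07. Foxo1 (-0.75 ± 0.10) and Klf2 (-0.63 ± 0.14), the factor of recirculation, were the leading decreases of that list. Of 11 AP-1, IRF and Maf partners 2 were higher and 5 lower, with Bach2 at -1.57 ± 0.16 and Fosl2 at 0.71 ± 0.11. Of 13 effector products 5 were higher and 4 lower, with Il12rb2 (1.82 ± 0.13), Cx3cr1 (1.79 ± 0.21) and Ccl5 (1.25 ± 0.13) leading the increases and Klrg1 (-0.81 ± 0.13), Il2ra (-0.70 ± 0.11) and Lag3 (-0.69 ± 0.08) the decreases. Of 15 follicular surface and help genes 10 were lower, led by Il6ra (-2.56), Il6st (-2.45) and Cxcr5 (-2.06), and Il21, Icos and Cd40lg were higher (0.53, 0.51 and 0.51). The median log2 change was 0.11 over the effector products and -0.43 over the follicular surface and help genes, beside 0.01 over all genes tested. These medians are descriptions, as the lists were chosen with earlier results known. Corepressors gave 1 higher (Hdac1, 0.54 ± 0.12) and 3 lower of 11. This comparison shares the cGVHD spleen PSGL1lo libraries with the spleen comparison of fractions.

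Tissues were compared within each fraction. In lung against liver PSGL1lo cells, Bcl6 (1.33 ± 0.11), Pou2af1 (2.48 ± 0.22) and Tox2 (0.74 ± 0.10) were higher and Prdm1 (-0.96 ± 0.10) and Irf4 (-0.32 ± 0.11) lower (adjusted p = 3.48e-09, 9.35e-09, 7.56e-06, 7.98e-08 and 0.0223). The Irf4 call was lost without liver PSGL1lo replicate 2 (-0.17) or lung PSGL1lo replicate 2 (-0.14), and with only the compared groups in the fit (-0.31, adjusted p = 0.103). Among all genes 39.9% were called in that comparison (19.6% higher and 20.4% lower). In PSGL1hi cells Bcl6 (2.17 ± 0.12) and Maf (0.26 ± 0.07) were higher in lung (adjusted p = 3.51e-12 and 0.00679) and 38.4% of all genes were called (20.1% higher and 18.3% lower). The Maf call was lost without liver PSGL1hi replicate 1 (0.22) or lung PSGL1hi replicate 2 (0.24), which left 1 factor called. All 12 macrophage and dendritic cell markers and all 5 lung epithelium markers were higher, and all 5 tested hepatocyte markers lower, in lung than in liver PSGL1lo cells, and AP-1 partners such as Fosl2 (3.62 ± 0.11) and Maff (3.18 ± 0.21) were higher too. All 5 regulatory T cell markers were higher in lung PSGL1lo cells, from 0.37 ± 0.10 for Il2ra to 2.19 ± 0.22 for Lrrc32, and both CD8 and both tested natural killer cell markers were lower (Cd8a -2.70 ± 0.14, Klrb1c -1.97 ± 0.18). In PSGL1hi cells all 12 macrophage and dendritic cell, all 5 regulatory T cell and all 5 lung epithelium markers were higher in lung. There 4 of 5 tested hepatocyte, both CD8 and both tested natural killer cell markers were lower. Among plasma cell markers, Jchain (4.34 ± 1.06), Sdc1 (2.51 ± 0.50) and Xbp1 (0.38 ± 0.07) were higher in lung PSGL1lo cells. In PSGL1hi cells Sdc1 (1.755 ± 0.524) and Xbp1 (0.52 ± 0.07) were higher in lung. The other plasma cell markers tested did not pass. Cd22 was the only B cell marker called, higher in lung PSGL1lo (0.99 ± 0.18) and PSGL1hi cells (1.56 ± 0.23). The part of all these markers in the lung and liver differences was not tested.

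Spleen libraries carry numbers of another run of library names than liver and lung libraries. Contrasts of either tissue with spleen therefore join tissue with library series, and these cannot be told apart. There 57.7% to 61.8% of all genes were called (60% for lung and 57.7% for liver in PSGL1lo, 61.8% and 57.9% in PSGL1hi cells). Of the 8 factors 7 were called for lung and 6 for liver in PSGL1lo cells, and 7 for each in PSGL1hi cells. Summed CPM of 10 CD4 T cell markers was 8253 to 9100 in lung and liver groups and 5651 to 6071 in cGVHD spleen groups. That of 12 macrophage and dendritic cell markers was 787 to 1297 in lung, 27.7 to 67.5 in liver and 205 to 447 in spleen. Plasma cell markers, 6 in all, summed to 92.8 to 123 in lung, 70.0 to 84.0 in liver and 113 to 173 in spleen. The part of these transcripts in the contrasts with spleen was not tested. Tox2 was higher than in spleen by 2.34 ± 0.11 in lung and 1.60 ± 0.11 in liver PSGL1lo cells and by 2.44 ± 0.12 and 2.47 ± 0.12 in PSGL1hi cells. Bcl6 was higher by 1.98 ± 0.12 in lung and 0.66 ± 0.12 in liver PSGL1lo cells and by 2.83 ± 0.13 and 0.66 ± 0.14 in PSGL1hi cells. Prdm1 was higher than in spleen in PSGL1hi cells, as Bcl6 was, by 0.26 ± 0.09 in lung and 0.34 ± 0.09 in liver (adjusted p = 0.0196 and 0.00405). In PSGL1lo cells it changed by -0.77 ± 0.10 in lung (adjusted p = 7e-07), and its 0.18 ± 0.10 in liver did not pass (adjusted p = 0.106). The lung PSGL1hi call was lost without either spleen PSGL1hi library or lung PSGL1hi replicate 2 (0.16 to 0.26), and the liver PSGL1hi call without spleen PSGL1hi replicate 2 (0.28). Maf was higher in PSGL1hi cells of lung (0.47 ± 0.07) and liver (0.21 ± 0.07), the liver call being lost without spleen PSGL1hi replicate 2 (0.14) or liver PSGL1hi replicate 2 (0.18), and lower in PSGL1lo cells (-0.49 ± 0.07 and -0.35 ± 0.07). Irf4 was lower in each of these 4 contrasts (-0.87 to -0.32), in lung PSGL1hi cells with a call lost without lung PSGL1hi replicate 2 (-0.19). Batf was lower in each as well (-0.74 to -0.19), with PSGL1lo calls lost without spleen PSGL1lo replicate 1 in liver (-0.21) and lung (-0.12). The lung PSGL1lo call for Batf was also lost without either lung PSGL1lo library (-0.21 and -0.14) and without the low-count filter (-0.18).

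Genes with the most similar course over the 7 groups were sought by the root mean square difference of log2 CPM group means, each gene centred on its own mean. For Bcl6, whose own means spread by 1.20 on that measure, the closest were Tnfrsf23 (0.408), Ldlrad4 (0.46) and Spry1 (0.476). Prdm1 (own spread 0.716) was closest to Dock5, Ppp3ca and F2r (0.218 to 0.222). Pou2af1 (2.23) was closest to Vat1l, the B cell factor Pax5 and Fam43a (0.658 to 0.806), and Tox2 (1.09) to Tmem220, Pou2f2 and the lymphotoxin gene Lta (0.186 to 0.263). Maf (0.226) lay closest to Setd2, Crebbp and Ireb2 (0.0749 to 0.0921). Irf4 (0.408) lay closest to Zswim6, Mul1 and Bach1 (0.0929 to 0.119), and Batf (0.363) to Akr1b10, Fam229b and Rpgrip1l (0.134 to 0.152). Ascl2, which is near 0 in 6 groups, lay closest to Eyelinc18, Gfra4 and Zcchc12 (0.205 to 0.389). The groups share tissue, library series and disease, and likeness over 7 points is a description.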

How the data were processed

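The deposited table gives whole-number read counts per gene symbol for 14 libraries, with no normalisation. TopHat2 2.0.8, HTSeq and mm9 are named in the submitters' processing notes. Annotation, strand setting and read filters were not stated there, so overlapping or antisense genes may share reads. Groups and replicates follow the sample labels.

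R 4.3.3 and edgeR 4.0.16 were used on these counts. The filterByExpr defaults kept 13780 of 25017 genes. After TMM scaling, 1 quasi-likelihood model with a mean for each of the 7 groups took in every library, leaving 7 residual degrees of freedom. Contrasts were tested 2-sided, adjusted by Benjamini-Hochberg over all genes tested, and called under 0.05. SEs come from the F statistic. The tests were run on simulated data first. No fitted value was used where every group compared held at most 4 counts of a factor in all. The members and lists were chosen with earlier results of these data known. The text names the 8 members, up to 3 called genes per direction, list and comparison (followed in the other comparisons too), the 3 genes closest in course to each member, and markers by level or absence. Foxp3, Pax5, Cd8a, Klre1, Il2ra, Lrrc32, Jchain, Sdc1 and the sorted gene Selplg were named after their values were seen. Alternatives were RLE size factors, no filter (all genes with a count), DESeq2 1.42.0, limma 3.58.1 voom, fits to the compared groups alone, a replicate block and leaving out each library. Promoter windows are RefSeq's on GRCm38.p6. Single-gene values of some list members are not reported here.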

Additional observations from a re-analysis of the deposited data

Results flagged for a closer look

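For each of the following genes the effect of PSGL1lo over PSGL1hi cells differed between 2 tissues by edgeR's quasi-likelihood test of the difference itself, with an adjusted p under 0.05. Between lung and liver the log2 effects differed by -0.85 for Bcl6, -0.88 for Prdm1, -0.40 for Maf and 0.77 for Tox2. Between lung and spleen they differed by -0.85 for Bcl6, -1.04 for Prdm1, -0.96 for Maf, 2.83 for Pou2af1, 0.56 for Batf and -0.55 for Irf4. Between liver and spleen they differed by -0.56 for Maf, 0.42 for Batf and -0.87 for Tox2. Where spleen is set against another tissue, tissue cannot be told apart from library series. Groups of 2 libraries are too small to look for a library far from the others.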

How the results depend on the processing

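Over 92 results for the 8 factors and 1004 values under alternatives, 943 were the same, 35 weaker, 11 stronger and 15 changed sign, 0 of them for a called result. For tests of single factors, weaker and stronger mean a call lost or gained. The results also took in counts of called factors and the Bcl6 to Prdm1 ratio differences, which have no p. Counts of called factors in lung against liver PSGL1hi cells are among the weaker values. With single libraries left out, the factors called in lung against liver PSGL1hi cells numbered 1 to 2. The other counts of called factors stayed within 1.5 times. The log2 difference of the Bcl6 to Prdm1 ratio ranged from 1.65 to 2.30 in lung, 1.89 to 1.97 in liver, 1.67 to 1.88 in spleen and -3.17 to -3.04 for cGVHD against GVHD-free cells.

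The sign changes were in values near 0. The liver minus spleen difference for Bcl6 was -0.0110 with limma voom, -0.00550 with the replicate block, -0.00446 with only its groups fitted, and -0.13 to 0.16 with libraries left out. With libraries left out, Tox2 (lung minus spleen effect) ranged from -0.36 to 0.21, Maf from -0.12 to 0.022 for cGVHD against GVHD-free and from -0.033 to 0.064 for liver PSGL1lo against PSGL1hi. In lung against liver PSGL1hi cells the ranges were -0.20 to 0.021 for Prdm1, -0.049 to 0.20 for Irf4 and -0.097 to 0.0013 for Batf. The cause was not tested. No label says that libraries of the same number share an animal or batch. The names of the liver and lung libraries also hold a letter, A or B, that follows the replicate number. Its meaning is not stated. Deviations of same-numbered libraries correlated by 0.239 between the fractions of spleen, 0.238 in lung and 0.0488 in liver, and by over 0.1 in 4 of 21 pairs of groups (range -0.277 to 0.239), so pairing is not established. Taken within a number, the log2 ratio differences were 2.04 and 1.91 in lung, 1.99 and 1.87 in liver and 1.60 and 1.95 in spleen. The replicate block changed no count of called factors. Few counts limit what can be said of Ascl2, with at most 3 counts in a cGVHD library, and of Pou2af1 in liver PSGL1hi cells (6 and 12 counts).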
